A study of Mus musculus with 10 samples.

Results

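The upper glycolysis genes were Hk1, Hk2, Gpi1, Pfkl, Pfkm, Pfkp, Pfkfb1, Pfkfb2, Pfkfb3 and Pfkfb4. Their members in these data were all CUT&Tag peaks assigned to 1 of these 10 symbols, 61 of 108253 peaks, and the symbols were 10 of the 25400 in the peak table. Retinas of wild-type C57Bl/6J mice at postnatal day 28 were freed of sclera and pigment epithelium and kept as explants for 48 h in medium with 5 mM or 25 mM glucose. CUT&Tag, in which a tethered transposase cuts DNA around an antibody-bound histone mark and the released fragments are sequenced, was run on 500000 dissociated cells per assay for H3K18La (lactylation of histone H3 lysine 18, 3 libraries per glucose level) and H3K27Ac (acetylation of lysine 27, 2 libraries per glucose level). The labels gave no split of the libraries into batches and did not say whether replicates came from separate animals. The p-values therefore measure only the spread between these libraries, and a batch difference between the glucose levels could not be tested. The comparison asked how the marks at these genes differed between the glucose levels.

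Hexokinases (Hk1, Hk2) phosphorylate glucose, glucose-6-phosphate isomerase (Gpi1) converts the product to fructose-6-phosphate, and phosphofructokinase, whose subunits are encoded by Pfkl, Pfkm and Pfkp, commits it to glycolysis. The bifunctional PFKFB enzymes (Pfkfb1 to Pfkfb4) make and break down fructose-2,6-bisphosphate, an activator of phosphofructokinase. Photoreceptors convert much of their glucose to lactate even in oxygen, and Hk2 and Pfkfb2 are taken here, as background, as the isoenzymes they use.

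RefSeq (GRCm38.p6) start windows, 250 bases before to 50 bases after a transcription start, were found for all 10 genes, 20 windows in all. Shown are 1 window each of both hexokinases and of 2 PFKFB genes, so that a photoreceptor isoenzyme stands beside another member of its family, each lying in a promoter peak of its gene and on the minus strand: Hk1 at chr10:62340372-62340671, Hk2 at chr6:82774405-82774704, Pfkfb2 at chr1:130715772-130716071 and Pfkfb3 at chr2:11502041-11502340. Capitals mark, on either strand, GGGCGG (GC box), ACGTG (hypoxia response core), CACGTG (E-box, which contains the hypoxia response core), the CRX core TAATCC and the NRL core, spelled TGCTGA.
Hk1: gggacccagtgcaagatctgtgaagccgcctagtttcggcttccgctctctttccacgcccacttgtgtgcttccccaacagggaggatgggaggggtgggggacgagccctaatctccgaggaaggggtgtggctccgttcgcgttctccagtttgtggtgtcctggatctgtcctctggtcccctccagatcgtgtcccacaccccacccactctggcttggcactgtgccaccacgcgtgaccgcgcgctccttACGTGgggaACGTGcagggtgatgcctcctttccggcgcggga
Hk2: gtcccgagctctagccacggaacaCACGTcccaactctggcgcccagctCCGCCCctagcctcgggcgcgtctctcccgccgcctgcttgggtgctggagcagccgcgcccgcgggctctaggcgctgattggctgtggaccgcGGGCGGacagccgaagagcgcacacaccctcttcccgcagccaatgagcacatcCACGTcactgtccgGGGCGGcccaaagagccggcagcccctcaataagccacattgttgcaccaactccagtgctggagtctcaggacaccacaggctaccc
Pfkfb2: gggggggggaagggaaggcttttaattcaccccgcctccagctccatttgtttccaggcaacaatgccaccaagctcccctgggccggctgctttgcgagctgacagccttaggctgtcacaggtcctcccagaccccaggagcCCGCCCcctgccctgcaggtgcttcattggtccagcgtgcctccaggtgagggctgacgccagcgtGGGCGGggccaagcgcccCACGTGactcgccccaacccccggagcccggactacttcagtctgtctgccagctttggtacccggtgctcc
Pfkfb3: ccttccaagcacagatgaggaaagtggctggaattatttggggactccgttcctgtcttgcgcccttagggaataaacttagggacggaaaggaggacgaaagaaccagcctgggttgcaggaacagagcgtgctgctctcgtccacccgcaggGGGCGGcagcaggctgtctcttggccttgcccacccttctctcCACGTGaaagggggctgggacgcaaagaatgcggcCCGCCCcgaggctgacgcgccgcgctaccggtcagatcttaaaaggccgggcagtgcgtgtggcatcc
The GC box was found in 9 of the 20 member windows and in 35.7% of all 32851 RefSeq windows. ACGTG was found in 8 of 20 member windows against 19.6% of all windows, CACGTG in 3 against 7.15%, TAATCC in 3 against 7.06% and TGCTGA in 5 against 19.5%. The Hk2 window held 3 GC boxes and 2 ACGTG matches, whereas the Hk1 window held 2 ACGTG matches and no GC box. The Pfkfb2 and Pfkfb3 windows each held 2 GC boxes and 1 CACGTG. None of the 4 printed windows held TAATCC or TGCTGA.

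Values are RPKM (reads per kilobase of peak, scaled to the reads of the library), as deposited. Depth differed between libraries, with 1358008 to 7424470 reads behind the RPKM, and the share of those reads inside peaks was 11.8 to 12.01% for H3K18La at 5 mM, 31.2 to 35.0% at 25 mM, 21.1 and 31.5% for H3K27Ac at 5 mM, and 69.5 and 56.5% at 25 mM. Peaks as a whole were shifted upward at the higher glucose level, by a median of 0.76 (log2) for H3K18La and 0.58 for H3K27Ac. The promoters of 7 rod markers, among them rhodopsin, summed to 11.7 to 15.3 RPKM for H3K18La at 5 mM and to 56.0 to 138 RPKM at 25 mM, and for H3K27Ac to 47.8 to 85.7 RPKM and 227 to 412 RPKM, with all 7 called higher for both marks. Of the Müller glia promoters 0 of 7 were called for H3K18La and 2 of 7 for H3K27Ac, of the cone promoters 1 of 5 for each mark, of the bipolar promoters 0 of 5 and 3 of 5, of the amacrine and ganglion promoters 1 of 4 for each mark, and of the pigment epithelium promoters 1 of 2 and 0 of 2, beside 20.1% of the strongest promoters of all genes called for H3K18La and 42.5% for H3K27Ac. None of the 5 microglial markers had a promoter peak, and 0 of the markers with a promoter peak were at 0 throughout a group. The part of cell composition and of the share of reads in peaks in the results below was not tested, and in such bulk libraries fewer cells of a type and less signal per cell cannot be told apart.

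Of the 61 peaks, 16 lay at promoters (1000 bp before to 500 bp after a start, as annotated by the submitters), 32 in introns, 5 in exons, 3 in 3′ UTRs, 1 in a 5′ UTR and 4 between genes. Promoters made up 26.2% of the member peaks and 15.8% of all peaks. Hk1 had 17 peaks, Hk2 12 and Pfkfb3 11, whereas Pfkm had 1. Not every gene had a peak at its main start. Pfkfb1 had no peak assigned as its promoter, although 1 of its 4 RefSeq start windows lay in a peak assigned to Apex2. The RefSeq start of Pfkl lay in no peak, and its promoter peak (chr10:77991630-77992398) was assigned to an internal transcript with a retained intron.

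H3K18La was higher at 25 mM glucose at 26 of the 61 member peaks and lower at 0 (limma on log2(RPKM + 0.5), Benjamini-Hochberg adjusted over all peaks, threshold 0.05), beside 20.6% of all peaks called higher. The median log2 fold change was 1.33 over member peaks and 0.76 over all peaks. H3K27Ac was higher at 25 of the 61 and lower at 0, beside 16.4% of all peaks, with medians of 1.25 and 0.58. For H3K18La 41 member peaks had all 25 mM libraries above all 5 mM libraries, beside 36.6% of all peaks, and for H3K27Ac 48 did, beside 53.0%. Calls for the 2 marks fell on shared peaks at 19 of the 61, beside 8.16% of all peaks called higher for both, and 29 were called for neither. Hk1 and Hk2 together held 29 of the member peaks and 19 of the 26 H3K18La calls, so the member counts lean on these 2 loci. The other 8 genes had 32 peaks, of which 7 were called in H3K18La and 8 in H3K27Ac. The calls in both marks depended on scaling. With libraries scaled to their reads in peaks, 0 of the 61 and 0 of all peaks were called for either mark (limma, with 10505 H3K18La and 15698 H3K27Ac peaks at an unadjusted p under 0.05), the H3K18La median over members was 0.17 with 46 of 61 above 0, and the H3K27Ac median was 0.07 with 33 of 61 above 0. Without library 2 at 25 mM the H3K18La count was 17 of 61, beside 11.2% of all peaks in that fit. Centring on the median of all peaks gave 6 of 61 for H3K18La, beside 5.02% of all peaks, and 13 of 61 for H3K27Ac, beside 5.11%. With pseudocount 0.1 or moderation that was not robust, 0 of the 61 and 0 of all peaks were called for H3K27Ac. Leaving out 1 of the 4 H3K27Ac libraries sets 2 libraries against 1, the lone one being assumed to vary like the others, and such fits called 0 of all peaks (limma, 5836 to 36319 at an unadjusted p under 0.05), so they bear on the sizes and not on the calls. The median over members was 0.86 to 1.49 in these fits, with 56 to 59 of 61 above 0.

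Taking for each gene its strongest promoter peak, by mean RPKM across all 10 libraries, 5 of 9 promoters rose in H3K18La (Hk1, Hk2, Gpi1, Pfkp and Pfkfb2), beside 20.1% of the strongest promoters of all genes. In H3K27Ac 6 of 9 rose (Hk1, Hk2, Pfkl, Pfkfb2, Pfkfb3 and Pfkfb4), beside 42.5%. The strongest promoters of all genes had medians of 0.88 in H3K18La and 1.16 in H3K27Ac. Against these, the 9 values ranged from -1.11 (Pfkm) to 0.84 (Gpi1) in H3K18La and from -0.43 (Pfkm) to 0.97 (Hk1) in H3K27Ac, with Pfkp at 0.14. The H3K18La count was 2 of 9 without library 1 at 25 mM, where 9.99% of the strongest promoters of all genes were called, 2 of 9 without library 2 at 5 mM (13.6%), 3 of 9 without library 2 at 25 mM (10.5%), and 0 of 9 with libraries centred on the median of all peaks (4.13%). Of the 6 H3K27Ac calls, 3 were kept under median centring (Hk1, Hk2 and Pfkl), beside 15.6%. One fit over all 10 libraries gave 2 of 9 in H3K27Ac (9.74%), as did the replicate numbers taken as a block (16.8%). Pseudocount 0.1 or moderation that was not robust gave 0 of 9 in H3K27Ac, beside 0%. With 1 H3K27Ac library left out, where no peak of any gene was called, all 9 differences stayed above 0, with medians of 1.15 to 1.89. All 25 mM libraries lay above all 5 mM libraries at 7 of 9 promoters in H3K18La, beside 45.0% of the strongest promoters of all genes, and at 9 of 9 in H3K27Ac, beside 79.3%. Under scaling to reads in peaks 0 of the 9 were called in either mark, and 8 of the 9 log2 fold changes stayed above 0 in each mark, Pfkm being the exception in both.

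**Figure D1:**
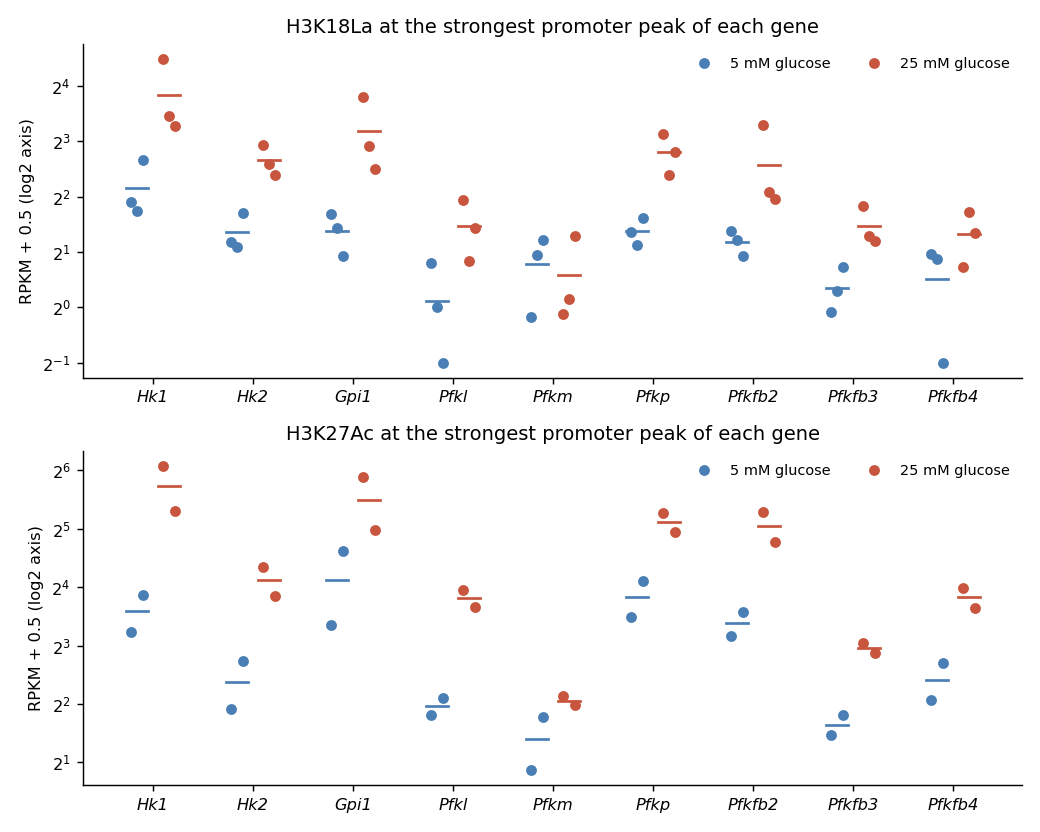
RPKM + 0.5 on a log2 axis at the strongest promoter peak of 9 genes, with 1 point per library and a bar at the group mean for 5 mM (blue) and 25 mM (red) glucose. For H3K18La the 2 groups did not overlap at 7 of 9 genes and for H3K27Ac at 9 of 9, with Pfkm and Pfkfb4 overlapping in H3K18La.

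Hk1, the hexokinase found in most tissues, had its strongest promoter peak at chr10:62326743-62328509, at the start of an internal coding transcript. Its H3K18La signal was 3.22, 2.84 and 5.83 RPKM at 5 mM and 21.9, 10.4 and 9.16 RPKM at 25 mM. Every 25 mM library lay above every 5 mM library, and the log2 fold change was 1.64 ± 0.36 (SE, limma adjusted p = 0.00538), a call lost without library 2 at 5 mM (1.46). Its H3K27Ac signal was 8.90 and 14.1 RPKM at 5 mM and 66.6 and 39.1 RPKM at 25 mM, a log2 fold change of 2.14 ± 0.49 (limma adjusted p = 0.0147). The peak that holds the printed Hk1 window (chr10:62338104-62341212) overlaps a start window of Hk1os as well, and rose likewise, by 1.70 in H3K18La and 2.08 in H3K27Ac on the log2 scale (limma adjusted p = 0.00308 and 0.0156).

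Hk2, the isoenzyme taken as that of photoreceptors, had its strongest promoter peak at chr6:82774246-82775314, which holds the printed window. Its H3K18La signal was 1.77, 1.62 and 2.76 RPKM at 5 mM and 7.14, 5.52 and 4.73 RPKM at 25 mM. The groups did not overlap, and the log2 fold change was 1.31 ± 0.35 (limma adjusted p = 0.0171), a call lost without library 1 (1.16) or 2 (1.34) at 25 mM or library 2 at 5 mM (1.19). Its H3K27Ac signal was 3.25 and 6.18 RPKM at 5 mM and 19.9 and 13.9 RPKM at 25 mM, a log2 fold change of 1.78 ± 0.45 (limma adjusted p = 0.0184). Within a library, where scaling cancels, Hk2 gave 34.7 ± 2.28% (SD, n = 3) of the summed Hk1 and Hk2 promoter RPKM in H3K18La at 5 mM and 31.1 ± 5.62% at 25 mM (exact two-sided permutation p = 0.5, 0.625 after Benjamini-Hochberg adjustment over 10 tests of 5 shares in 2 marks). In H3K27Ac its share was 28.6 ± 2.62% (n = 2) and 24.6 ± 2.23% (exact permutation p = 0.333, adjusted 0.476). The smallest p that 3 against 3 libraries allow is 0.1 and that 2 against 2 allow is 0.333, so no share could pass 0.05.

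Gpi1, the isomerase, had at its promoter (chr7:34229959-34230485) H3K18La values of 2.70, 2.20 and 1.40 RPKM at 5 mM and 13.5, 7.0 and 5.12 RPKM at 25 mM. The groups did not overlap, and the log2 fold change was 1.72 ± 0.39 (limma adjusted p = 0.00646). Its H3K27Ac values were 9.65 and 24.1 RPKM at 5 mM and 58.3 and 31.2 RPKM at 25 mM, with a log2 difference of 1.45 ± 0.53 that did not pass (limma adjusted p = 0.0603).

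The promoter peaks of the phosphofructokinase genes differed in level, which was not tested. The promoter of Pfkp, the platelet-type subunit (chr13:6646955-6649240), held H3K18La values of 2.07, 1.69 and 2.58 RPKM at 5 mM and 8.23, 4.73 and 6.49 RPKM at 25 mM, with a log2 fold change of 1.40 ± 0.35 (limma adjusted p = 0.0108), a call lost without library 1 at 25 mM (1.22). Its H3K27Ac values were 10.7 and 16.8 RPKM at 5 mM and 38.0 and 30.1 RPKM at 25 mM, a log2 difference of 1.30 ± 0.48 that did not pass (limma adjusted p = 0.0617). The internal promoter peak of Pfkl, the liver-type subunit, rested on 2, 2 and 0 reads at 5 mM and 5, 4 and 5 reads at 25 mM for H3K18La, a count of 0 allowing up to 3 reads, and did not pass (limma adjusted p = 0.0981). In H3K27Ac it was 3.01 and 3.77 RPKM at 5 mM and 15.0 and 12.1 RPKM at 25 mM (log2 fold change 1.85 ± 0.42, limma adjusted p = 0.0145). At the single peak of Pfkm, the muscle-type subunit (chr15:98108099-98109314), the H3K18La values were 0.39, 1.43 and 1.82 RPKM at 5 mM and 0.418, 0.607 and 1.94 RPKM at 25 mM. These groups overlapped, with a log2 difference of -0.23 ± 0.60 (limma adjusted p = 0.833), from 1 to 9 reads per library, and its sign turned to 0.05 when either library 1 at 25 mM or library 3 at 5 mM was left out. In H3K27Ac the Pfkm peak was 1.33 and 2.91 RPKM at 5 mM and 3.89 and 3.43 RPKM at 25 mM (limma adjusted p = 0.239).

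Of the summed phosphofructokinase promoter RPKM, Pfkp took 53.8 ± 6.32% (n = 3) in H3K18La at 5 mM and 67.1 ± 5.41% at 25 mM (exact permutation p = 0.1, adjusted 0.476), the 3 libraries at 25 mM all lying above those at 5 mM. Over all peaks of the genes the difference was 6.03 points in place of 13.3, and the libraries overlapped (exact permutation p = 0.2). The order of the genes also turned there, with Pfkl at 39.2% and 50.2% in H3K18La against 33.5% and 39.5% for Pfkp at 5 and 25 mM, and at 46.0% and 52.9% in H3K27Ac against 42.9% and 39.4%. In H3K27Ac the Pfkp promoter share was instead lower at 25 mM, at 66.4 ± 0.574% against 71.3 ± 0.216% (n = 2, exact permutation p = 0.333). The difference between the marks was not tested. Pfkm took 30.5 ± 17.3% at 5 mM and 10.3 ± 7.45% at 25 mM in H3K18La, with overlapping libraries (exact permutation p = 0.2), and Pfkl stood at 15.7 ± 16.8% and 22.5 ± 4.48% (exact permutation p = 0.6). The Pfkl difference of 6.80 points turned to -1.07 without library 3 at 5 mM. In H3K27Ac the groups did not overlap for either gene, with Pfkl at 18.02 ± 2.75% and 26.4 ± 0.0828% (n = 2) and Pfkm at 10.6 ± 2.54% and 7.18 ± 0.491% (exact permutation p = 0.333 for each, the smallest possible).

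Pfkfb2, taken as the photoreceptor isoenzyme of the PFKFB family, had its strongest promoter peak at chr1:130715175-130716764. Its H3K18La values were 2.09, 1.82 and 1.39 RPKM at 5 mM and 9.28, 3.71 and 3.39 RPKM at 25 mM. All 25 mM libraries were higher, library 1 most of all, and the log2 fold change was 1.27 ± 0.42 (limma adjusted p = 0.0449). This call sat close to the threshold and was lost in 5 of the 6 fits that left out 1 library, the exception being library 3 at 25 mM, with values of 0.85 without library 1 at 25 mM to 1.46 without library 2 at 25 mM. Its H3K27Ac values were 8.44 and 11.4 RPKM at 5 mM and 38.5 and 26.9 RPKM at 25 mM (log2 fold change 1.66 ± 0.47, limma adjusted p = 0.0242). The other Pfkfb2 promoter peak (chr1:130716832-130717669) overlaps a start window of Yod1. There the H3K18La groups overlapped (log2 difference 1.02 ± 0.65, limma adjusted p = 0.305), and H3K27Ac rose by 1.59 ± 0.51 (limma adjusted p = 0.0384). Pfkfb3 is an inducible isoenzyme with high kinase activity. It had lower values than the strongest Pfkfb2 promoter at chr2:11500621-11503800, which holds its printed window and also overlaps a start window of Gm52500. Its H3K18La signal there was 0.447, 0.728 and 1.16 RPKM at 5 mM and 3.04, 1.93 and 1.80 RPKM at 25 mM, groups that did not overlap although the log2 difference of 1.12 ± 0.49 did not pass (limma adjusted p = 0.127). Its H3K27Ac signal was 2.25 and 2.99 RPKM at 5 mM and 7.69 and 6.82 RPKM at 25 mM (log2 fold change 1.32 ± 0.41, limma adjusted p = 0.0329). At the start farthest upstream in Pfkfb3 (chr2:11552901-11554118) both marks overlapped between the groups, with log2 differences of 0.16 and 0.29. Its mean H3K18La was 1.75 RPKM at 5 mM and 1.97 RPKM at 25 mM, against 0.778 and 2.26 RPKM at chr2:11500621-11503800. Pfkfb4 had H3K18La values of 1.44, 1.32 and 0 RPKM at 5 mM and 1.16, 2.80 and 2.05 RPKM at 25 mM, groups that overlapped (log2 difference 0.99 ± 0.61, limma adjusted p = 0.277). In H3K27Ac it was 3.69 and 6.00 RPKM at 5 mM and 15.4 and 11.97 RPKM at 25 mM (log2 fold change 1.43 ± 0.44, limma adjusted p = 0.0316).

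Pfkfb2 gave 51.4 ± 3.87% (n = 3) of the summed PFKFB promoter RPKM in H3K18La at 5 mM and 53.2 ± 13.6% at 25 mM (exact permutation p = 1). That difference of 1.83 points turned to -5.99 without library 1 at 25 mM, to -0.32 without library 2 at 5 mM and to -1.36 over all peaks of the genes. In H3K27Ac it gave 57.3 ± 1.87% (n = 2) and 60.6 ± 2.57% (exact permutation p = 0.333, adjusted 0.476). In H3K18La the libraries of both glucose levels overlapped for the Hk2 and the Pfkfb2 share, and in H3K27Ac they did not overlap for either, the Hk2 difference being -3.98 and the Pfkfb2 difference 3.30 percentage points at 25 mM. With the promoter peak nearest the start in place of the strongest, the Hk2 share in H3K18La was 52.6 ± 5.79% at 5 mM and 45.0 ± 2.70% at 25 mM, and the groups did not overlap (exact permutation p = 0.1, the smallest possible). Over all promoter peaks they overlapped, with a difference of -4.53 points (exact permutation p = 0.3), and over all peaks of the 2 genes the difference was -0.62 points (exact permutation p = 1). Pfkfb1, with no promoter peak, entered the promoter sums as 0, whereas its other peaks counted in the sums over all peaks of the genes.

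**Figure D2:**
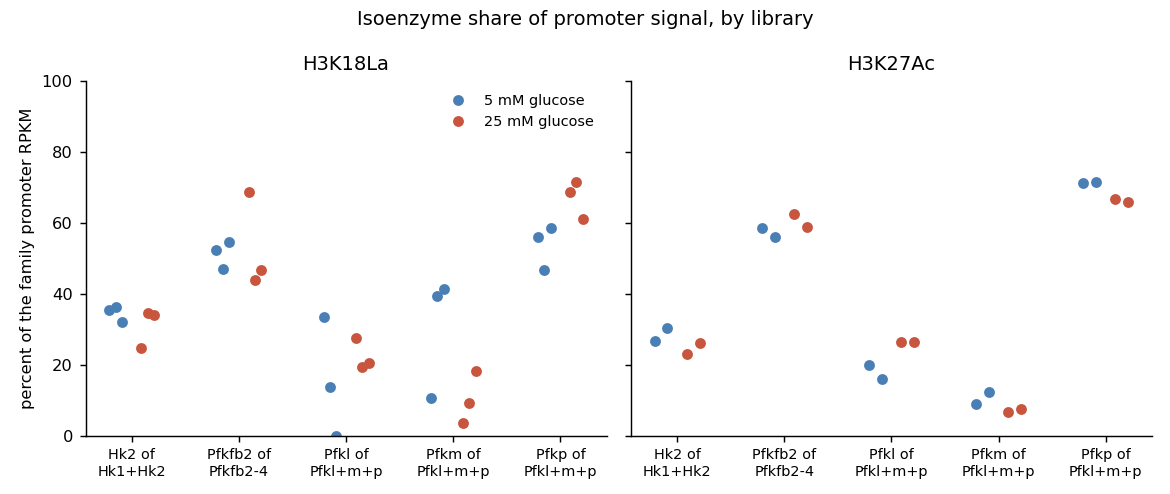
Percent of the summed promoter RPKM of its family given by each isoenzyme, 1 point per library, at 5 mM (blue) and 25 mM (red) glucose. The Hk2 and Pfkfb2 points of both glucose levels overlap in H3K18La, whereas the Pfkp promoter share lies higher at 25 mM in H3K18La, where shares over all peaks of the genes overlapped, and lower in H3K27Ac.

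**Figure D3:**
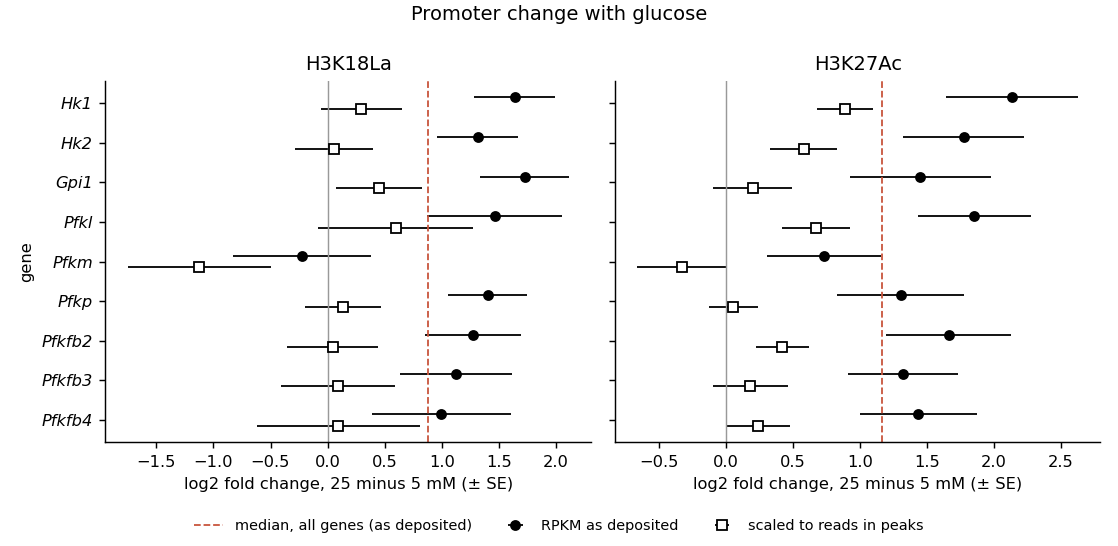
Log2 fold change (25 mM minus 5 mM, ± SE) at the strongest promoter peak of 9 genes, as deposited (filled) and scaled to reads in peaks (open), with the median of the strongest promoters of all genes as a dashed line (0.88 for H3K18La, 1.16 for H3K27Ac). Scaling to reads in peaks moves every gene toward or below 0.

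Away from promoters, 18 of 45 member peaks rose in H3K18La, beside 20.7% of non-promoter peaks called higher, and 14 of 45 in H3K27Ac, beside 11.9%. The largest changes lay in Hk1 and Hk2. In Hk1 the peak with the highest signal was intronic (chr10:62299669-62301159), 79.5 kb downstream of the farthest upstream RefSeq start. Its H3K18La values were 6.04, 4.01 and 4.45 RPKM at 5 mM and 33.4, 22.8 and 17.6 RPKM at 25 mM, with a log2 fold change of 2.21 ± 0.27 (limma adjusted p = 0.00022). Its H3K27Ac values were 14.1 and 24.0 RPKM at 5 mM and 95.8 and 56.2 RPKM at 25 mM (limma adjusted p = 0.0198). Both groups stood apart in each mark. Over all 17 Hk1 peaks together, H3K18La averaged 2.56 ± 0.33 RPKM (SD, n = 3) at 5 mM and 9.58 ± 2.41 RPKM at 25 mM, and 13 of the 17 were called higher, against 11 of 17 in H3K27Ac, beside 20.6% and 16.4% of all peaks.

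In Hk2 the H3K18La changes were largest in the first intron, at 3 peaks 2.84 to 6.36 kb downstream of the start, whereas in H3K27Ac a promoter peak (chr6:82773626-82774107) had the largest value, 1.99. The one at chr6:82767906-82768284 held H3K18La values of 2.50, 3.06 and 1.94 RPKM at 5 mM and 20.1, 14.9 and 12.5 RPKM at 25 mM (log2 fold change 2.44 ± 0.29, limma adjusted p = 0.000204). Nearer the start, chr6:82770788-82772447 rose by 2.26 in H3K18La and 1.95 in H3K27Ac on the log2 scale (limma adjusted p = 0.000812 and 0.0153). The narrow peak between them (chr6:82770360-82770604) had the largest log2 fold change of all member peaks in H3K18La, 2.72 ± 0.58, from 0, 3 and 1 reads at 5 mM and 4, 11 and 10 reads at 25 mM, so it is imprecise. Over all 12 Hk2 peaks H3K18La averaged 1.32 ± 0.19 RPKM at 5 mM and 4.72 ± 0.23 RPKM at 25 mM, and 6 of the 12 were called higher in each mark, beside 20.6% of all peaks in H3K18La and 16.4% in H3K27Ac.

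**Figure D4:**
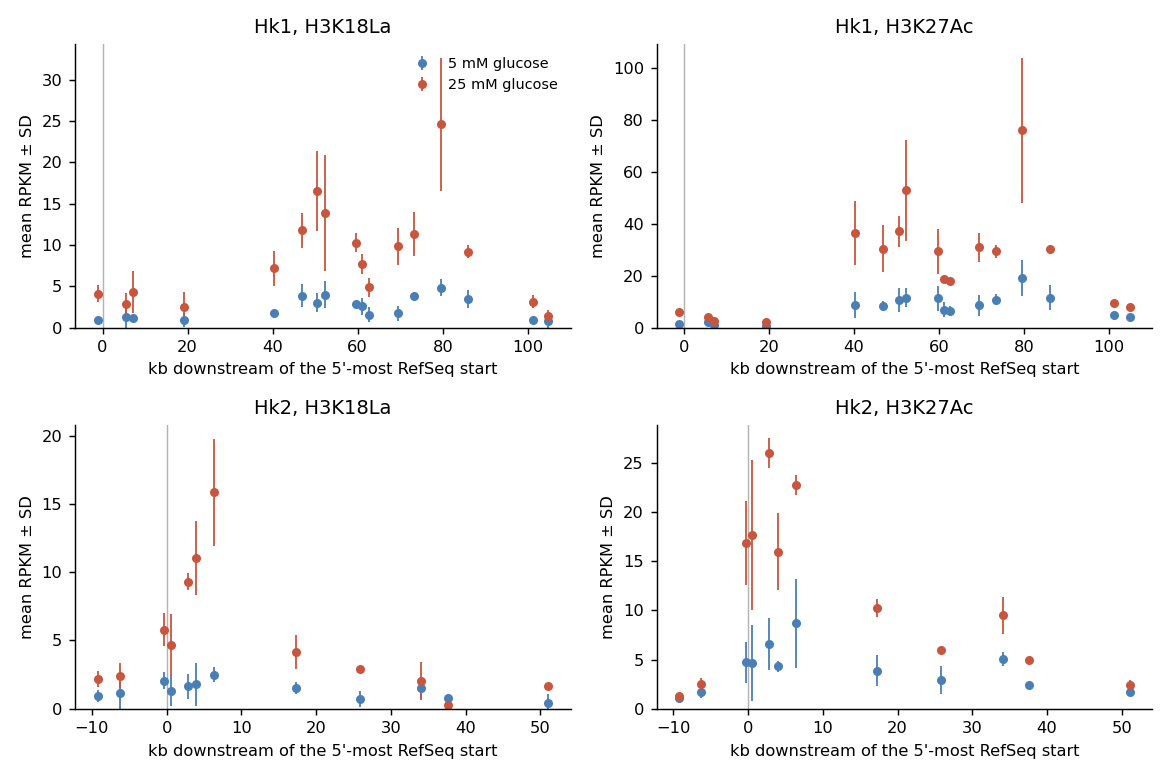
Mean RPKM ± SD of each Hk1 and Hk2 peak at 5 mM (blue) and 25 mM (red) glucose against distance downstream of the 5′-most RefSeq start, per mark. The highest Hk1 values lie 79.5 kb downstream of that start, and the highest Hk2 H3K18La value 6.36 kb downstream.

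Among the other genes, the 3′ UTR peak of Pfkl (chr10:77984112-77987070) had its highest mean RPKM over all libraries, although its 5′ UTR peak was higher in H3K27Ac at 5 mM (10.4 against 8.20 RPKM). The 3′ UTR peak also overlaps a RefSeq start window of Gm51807, so its reads cannot be assigned to 1 gene. It had H3K18La at 1.76, 1.57 and 2.24 RPKM at 5 mM and 8.43, 6.82 and 5.70 RPKM at 25 mM (limma adjusted p = 0.00326) and H3K27Ac at 6.49 and 9.90 RPKM against 35.4 and 25.2 RPKM (limma adjusted p = 0.0183). In Pfkfb1, an intronic peak (chrX:150607060-150607774) rose in H3K18La by 1.64 ± 0.42 on the log2 scale (limma adjusted p = 0.0128), a call lost without library 2 (1.56) or 3 (1.59) at 25 mM, with an H3K27Ac difference of 0.80 (limma adjusted p = 0.168). Of the 11 Pfkfb3 peaks 0 were called in H3K18La and 1 in H3K27Ac, beside 20.6% and 16.4% of all peaks. Its strongest non-promoter peak (chr2:11534922-11536133) had log2 differences of 0.64 in H3K18La and 0.28 in H3K27Ac, both of which turned negative under scaling to reads in peaks. The strongest non-promoter peaks of Gpi1 (chr7:34225874-34226613) and Pfkp (chr13:6631808-6632599) also passed in neither mark, with H3K18La differences of 0.96 and 0.79, negative under that scaling. That of Pfkfb2 (chr1:130709758-130710353) had differences of 1.34 and 1.29 and missed the threshold in both (limma adjusted p = 0.0822 and 0.0647).

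The difference between the marks in their response to glucose was tested as an interaction. It was called at 0 of 61 member peaks and at 0% of all peaks (limma over all 10 libraries, with 2 member peaks and 4988 of all peaks at an unadjusted p under 0.05, and 0 called by voom). The one with the smaller p, an exonic Pfkfb4 peak (chr9:109017472-109018025), rested on 0, 1 and 0 H3K18La reads at 5 mM and 1, 2 and 5 at 25 mM, a pooled ratio of 7.69 with a 95% exact interval of 1.03 to 341 that covers counting error only. Its H3K27Ac reads were 4 and 9 at 5 mM and 3 and 4 at 25 mM, with RPKM lower in both 25 mM libraries and a log2 difference of -0.94 (limma adjusted p = 0.143). The other, named after its values were seen, was an exonic Hk2 peak (chr6:82736496-82737227) with log2 differences of -0.82 in H3K18La and 0.90 in H3K27Ac. Its H3K18La value rested on 1, 3 and 1 reads at 5 mM and 0, 1 and 1 at 25 mM, a pooled ratio of 0.385 with a 95% exact interval of 0.0366 to 2.35, and its H3K27Ac value on 7 and 12 reads at 5 mM and 25 and 28 at 25 mM.

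The rest of the pathway was taken to cover glucose transport, other glucose kinases, opposing phosphatases (Fbp1 and Tigar), lower glycolysis, and lactate production and transport. Its promoters are the other glycolysis promoters of the closing section, and Hk3 and Fbp2 had no promoter peak. In this set, 6 of 20 promoters rose in H3K18La and 11 of 20 in H3K27Ac, with 0 lower, beside 20.1% and 42.5% of the strongest promoters of all genes. The H3K18La count was 1 without library 1 at 25 mM, beside 9.99% of the strongest promoters of all genes in that fit. It was 2 without library 2 at 25 mM (10.5%) or library 2 at 5 mM (13.6%). Median centring gave 0 of 20 for H3K18La (4.13%) and 5 of 20 for H3K27Ac (15.6%). Scaling to reads in peaks gave 0 for both, and pseudocount 0.1 or moderation that was not robust gave 0 for H3K27Ac, beside 0% of all genes in each. One fit over all 10 libraries gave 11 for H3K18La (30.1%) and 4 for H3K27Ac (9.74%). The glucose transporter gene Slc2a1 had an H3K18La difference of 0.98 ± 0.34 (limma adjusted p = 0.0565), which turned negative under scaling to reads in peaks, and an H3K27Ac fold change of 1.95 ± 0.48 (limma adjusted p = 0.0171). Aldoa, which encodes an aldolase, rose by 1.69 ± 0.46 in H3K18La (limma adjusted p = 0.0173), a call lost without library 1 (1.67) or 2 (1.48) at 25 mM or library 2 at 5 mM (1.57). Ldha, whose product makes lactate, rose by 2.19 ± 0.51 and 2.34 ± 0.50 (limma adjusted p = 0.00766 and 0.0135), the H3K18La call being lost without library 1 at 25 mM (1.74). The others called in H3K18La were Slc16a1 (a lactate transporter, 2.17), Eno1 (enolase, 2.08), Pkm (pyruvate kinase, 1.47) and Aldoc (aldolase, 1.37).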

How the data were processed

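Peaks, their gene assignment and RPKM came from the deposited table. Per the labels and the study's methods, the authors aligned reads to GRCm38, called peaks with MACS, merged consensus peaks, annotated them with ChIPseeker 1.34.1 and tested with edgeR 3.40.2. The authors deposited RPKM, which at a tolerance of 0.01 reads gave whole reads for 100% of values in each library. The reads behind the RPKM are the denominators so recovered, and a scaling factor inside them cannot be told apart from depth. GEO's extract protocol names an H3K9me3 antibody and pA-MNase, whereas the study's methods name H3K27Ac and pA-Tn5. A second deposited table of the authors' own fold changes, p-values and group means was not used.

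The 61 member peaks, the gene lists and the tests were chosen with earlier results of these data known. Log2(RPKM + 0.5) of all 108253 peaks was fitted per mark with limma 3.58.1 (R 4.3.3), with trend and robust moderation and Benjamini-Hochberg adjustment over all peaks. The interaction was fitted over all 10 libraries. Shares were compared by exact two-sided permutation. Since the unit is RPKM, a count test was not the main test, and limma replaced the authors' quasi-likelihood test. Named were every member by its strongest promoter peak, the strongest non-promoter peak of each member, the 5 non-promoter peaks per mark with the largest change among those called, not overlapping between groups and holding at least 10 reads in some library, and Slc2a1, Aldoa and Ldha with up to 5 other pathway genes called for H3K18La. The fit was tested on simulated data. Most directions were recovered there. When few peaks were changed, few or none of the changes passed the threshold, and when many were changed, most of the large ones passed. Intervals cover counting error only. Alternatives are given in the closing section.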

Additional observations from a re-analysis of the deposited data

How the results depend on the processing

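Limits. The H3K18La libraries had a median of 1 to 5 reads per peak, 17 of 61 member peaks held at most 3 reads in every 5 mM H3K18La library, and no share could pass 0.05. The planned edgeR test was not run, since the deposited unit is RPKM. Voom on recovered reads was chosen after seeing the data.

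In H3K18La, 22474 of all peaks, 26 member peaks, 5 of 9 member promoters and 6 of 20 other glycolysis promoters were called, and 8 of the 13 named non-promoter peaks, 5 of which per mark were named for being called. Centring on the median of all peaks gave 5434, 6, 0 and 0, with 5 of the named non-promoter peaks. Scaling to reads in peaks gave 0 in each of these, named peaks included. A threshold of 0.01 gave 11775, 15, 2 and 2. Leaving out 1 library gave 12138 to 21212, 17 to 24, 2 to 5 and 1 to 6. One fit over 10 libraries and voom gave 11 and 13 other glycolysis promoters.

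In H3K27Ac, 17988 peaks, 25 member peaks, 6 of 9 member promoters and 11 of 20 other glycolysis promoters were called. So were 7 of the 13 named non-promoter peaks, 5 of which were named for being called in H3K27Ac. Pseudocount 0.1, moderation that was not robust, scaling to reads in peaks, and leaving out any of the 4 libraries each gave 0 of all of these, named non-promoter peaks included. Centring on the median gave 5533, 13, 3 and 5. One fit over 10 libraries gave 4473, 11, 2 and 4. A threshold of 0.01 gave 86 peaks and 0 in the member, named and pathway sets. The fits without 1 library set 2 against 1. The cause of the other losses was not tested. The interaction was called at 0 member peaks under every alternative run.

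The replicate numbers were not taken as a pairing, and the labels do not state one. Deviations of same-numbered libraries correlated at 0.01 to 0.02 for H3K18La and -0.004 for H3K27Ac. With few reads per peak and only 2 H3K27Ac libraries per group, this cannot exclude a pairing. With the replicate numbers as a block, H3K27Ac counts were 8518 peaks, 7 member peaks, 2 member promoters, 2 named non-promoter peaks and 3 other glycolysis promoters. The H3K18La counts were 18471 and 22 member peaks, within 1.5 times the unblocked counts.

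The Pfkm promoter in H3K18La ranged from -0.65 to 0.053 under leave-one-out, and was 0.048 without library 3 at 5 mM. Scaling to reads in peaks gave, in H3K18La, -0.060 for the Gpi1 intron peak, -0.56 for the Pfkfb3 intron peak, -0.40 for the Pfkp intron peak and -0.31 for the Slc2a1 promoter. In H3K27Ac it gave -0.33 for the Pfkm promoter, -0.28 for the Gpi1 intron peak, -0.28 for the Pfkfb1 intron peak, -0.82 for the Pfkfb3 intron peak and -0.18 for the Pfkp intron peak. That Pfkfb3 peak was also -0.15 centred on the median and ranged from -0.11 (without H3K27Ac library 1 at 5 mM) to 0.68 under leave-one-out. The Pfkfb2 share of PFKFB signal in H3K18La (1.83 percentage points higher at 25 mM) was -1.36 over all peaks of the gene and ranged from -5.99 to 6.47 under leave-one-out, and the Pfkl share (6.80) ranged from -1.07 to 15.6.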

Other observations

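The share of a gene's reads in peaks that lay in promoter peaks could be taken for 8 genes. In H3K18La the libraries of both glucose levels overlapped for 7 of them, and for Pfkfb4 the share was 95 ± 7.07% (SD, n = 2, since 1 library held no reads there) at 5 mM and 74.9 ± 13.3% (n = 3) at 25 mM, its exonic peak holding 1 and 8 reads. In H3K27Ac the share was higher at 25 mM without overlap for 5 of 8 (n = 2 per group). These were Hk1 at 32.6 ± 2.00% and 38.6 ± 2.21%, Pfkl at 5.37 ± 0.624% and 7.0 ± 0.277%, Pfkp at 75.2 ± 1.52% and 77.7 ± 1.56%, Pfkfb3 at 60.6 ± 0.786% and 71.7 ± 1.33%, and Pfkfb4 at 84.2 ± 0.341% and 97.3 ± 0.914%. None of these was tested, and how many of all genes have such a rise was not taken. Over all peaks, the median H3K27Ac log2 fold change was 1.13 at promoter peaks and 0.50 at non-promoter peaks. The peak assigned to Apex2 that covers a Pfkfb1 start window (chrX:150587585-150588788) held 0, 1 and 2 H3K18La reads at 5 mM and 4, 11 and 3 at 25 mM, and 14 and 48 H3K27Ac reads against 118 and 112. Reads there cannot be divided between the 2 genes.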
